A study of Mus musculus with 20 samples.

Results

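Myeloid lineage regulators are the proteins that give marrow progenitors a monocyte and macrophage identity and keep it in the mature cell. Most are transcription factors that bind the enhancers of macrophage genes together: PU.1 opens this chromatin, CEBP and RUNX factors bind beside it, and IRF8, MAF, KLF4 and ZEB2 set the type of myeloid cell that results. ZFP36L1 acts after transcription, since it binds AU-rich elements in mRNA and speeds its decay. The regulators described here are the 9 genes Spi1, Cebpa, Cebpb, Irf8, Runx1, Maf, Klf4, Zeb2 and Zfp36l1. They were found by symbol in the table of normalized gene counts, after its Ensembl identifiers had been matched to the GENCODE M21 annotation, and all 9 are among the 14456 genes that the table lists.

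Bone marrow-derived macrophages (BMDM) came from wild-type male C57BL/6J mice aged 8 to 12 weeks and were grown for 6 days with M-CSF at 25 ng/ml. In the glucose experiment the culture then ran for 24 h with 25 mM glucose (high glucose) or with 5.5 mM glucose with 19.5 mM mannitol (normal glucose), a sugar alcohol that evens out the osmolarity. In the exosome experiment naive BMDM received PBS, exosomes of BMDM kept in normal glucose (BMDM-NG-exo) or exosomes of BMDM kept in high glucose (BMDM-HG-exo). The exosomes were given for 24 h at 2000000000 particles per ml. Each of the 5 groups holds 4 bulk RNA libraries, 20 in all, and the labels do not say whether libraries of a group came from separate mice, so that p-values measure the spread between libraries. In bulk RNA, fewer cells of a type and less RNA per cell cannot be told apart.

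The libraries held between 34016445 and 56310712 reads over the listed genes, and a member had between 450 reads (Klf4) and 55207 reads (Zeb2) in a library. All 8 macrophage markers looked for (Adgre1, Csf1r, Cd68, Itgam, Lyz2, Fcgr1, Mertk and Cd14) were listed. Their summed normalized count was 628420 to 702912 in normal glucose, 808014 to 878735 in high glucose, 794502 to 841224 with PBS, 717507 to 773976 with BMDM-NG-exo and 735061 to 759636 with BMDM-HG-exo. None of the 6 dendritic cell, 6 B and T cell or 4 mast cell markers was listed. Of 9 neutrophil markers 5 were listed and added up to between 164.8 and 377.7, 4 of 5 stromal and endothelial markers to between 74.47 and 246.8, and 1 of 5 erythroid and megakaryocyte markers to between 0 and 36.66. The progenitor markers Cd34 and Ly6a were listed and Kit was not. Their sum was 209.4 to 269.7 in normal glucose and 356.9 to 433.7 in high glucose, without overlap. Lyz2 alone made up 71.2% to 75.7% of the macrophage sum in a library, and the sum without it was 180878 to 189641 in normal glucose and 208531 to 214976 in high glucose. One by one, 4 of the 8 macrophage markers were called higher in high glucose (Adgre1, Cd14, Csf1r and Lyz2), Cd68 and Mertk were called lower, and Itgam and Fcgr1 did not pass. Of the progenitor markers Ly6a was called higher and Cd34 was not called. Their part in the results on the members was not tested.

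All 9 members are protein-coding genes. On GRCm38, Spi1, which encodes PU.1, lies on chromosome 2 from 91082390 to 91115756 (forward strand, ENSMUSG00000002111). Cebpb lies on the same chromosome from 167688915 to 167690418 (forward strand, ENSMUSG00000056501). Zeb2 lies there from 44983632 to 45117395 (reverse strand). Cebpa is on chromosome 7 from 35119293 to 35121928, Irf8 on chromosome 8 from 120736358 to 120756694 and Maf on chromosome 8 from 115682942 to 115707794 (ENSMUSG00000055435). Klf4 is on chromosome 4 from 55527143 to 55532466, Runx1 on chromosome 16 from 92601466 to 92826149 and Zfp36l1 on chromosome 12 from 80107754 to 80113013 (reverse strand, ENSMUSG00000021127). A listed gene on the opposite strand overlaps exons of 6 members: Tmem189 overlaps Cebpb, Zeb2os overlaps Zeb2, and Gm45091, Gm26626, Gm15655 and Gm26669 overlap Cebpa, Runx1, Maf and Zfp36l1. The counting used strand, and none of these 6 neighbours was called in any of the 5 comparisons. Tmem189, the most abundant of them at 3140 to 3929 normalized counts, differed by a log2 fold change of 0.02 (SE 0.047) between high and normal glucose, where Cebpb did change. Gm45091, Gm26626, Gm15655 and Gm26669 had only 0.8377 to 71.64 normalized counts in a library. Their SEs between high and normal glucose were 0.38 to 0.726, so that only a large change of these could have been called.

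The upstream sequences of a gene that rose in high glucose and of one that fell in high glucose and in the exosome experiment are printed for context. They are the 250 bases before the RefSeq start site on GRCm38.p6, read on the strand of the gene, for Cebpb (chr2:167688665-167688914, forward strand) and Zfp36l1 (chr12:80113014-80113263, reverse strand). Capitals mark matches on either strand to the KLF motif CACCC in both genes and, in Zfp36l1 alone, to the CEBP motif TTNCNNAA and the AP-1 motif TGANTCA.
Cebpb: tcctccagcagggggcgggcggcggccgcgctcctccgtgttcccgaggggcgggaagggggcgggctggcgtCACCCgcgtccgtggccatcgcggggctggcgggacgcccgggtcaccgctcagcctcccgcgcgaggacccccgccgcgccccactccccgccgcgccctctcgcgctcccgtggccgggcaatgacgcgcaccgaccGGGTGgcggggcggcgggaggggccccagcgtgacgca
Zfp36l1: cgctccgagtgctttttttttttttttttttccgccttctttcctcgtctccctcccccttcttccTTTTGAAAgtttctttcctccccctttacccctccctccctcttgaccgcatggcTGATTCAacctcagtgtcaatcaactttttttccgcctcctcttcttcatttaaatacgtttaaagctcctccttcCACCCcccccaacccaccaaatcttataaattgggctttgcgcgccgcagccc
The Cebpb window has 2 matches to CACCC. The Zfp36l1 window has 1 match to each of the 3 motifs. Of all 32851 RefSeq windows of this length, 52% hold CACCC, 36.8% TTNCNNAA and 6.75% TGANTCA. No letters of the motifs GAGGAAGT or GGAAGT (ETS), GAAANNGAA (IRF), TGTGGT (RUNX), TGCTGA (MAF) or CAGGTG (ZEB) were found in these 2 windows, where 2.44%, 19.7%, 7.13%, 14%, 16.1% and 17.2% of all windows hold them. The letters of GGAAGT lie within GAGGAAGT. RefSeq windows were matched for 7 of the 9 members, 12 windows in all.

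Per kilobase of exon, Cebpb stood highest of the members, with a mean of 4367 normalized counts per kb over the 20 libraries, followed by Spi1 with 3685. Cebpa, Zfp36l1, Maf and Zeb2 followed with means between 2179 and 2443, Irf8 had 1612 and Runx1 711.2. Klf4, which specifies monocytes, was lowest with 193.5 normalized counts per kb. Of all genes listed, 98.4% lay below Cebpb on this scale and 56.5% lay below Klf4. The group means of a member differed by at most 1.71-fold, for Cebpb, and by as little as 1.07-fold, for Runx1. The 2 experiments were scaled together, but a difference between an exosome group and a glucose group cannot be told apart from one between the experiments. Zeb2, for one, had 44019 to 48608 normalized counts in the 8 glucose libraries and 39069 to 44414 in the 12 exosome libraries, ranges that just overlapped.

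Ordered by group mean, Cebpb ran from PBS (7964 ± 388.7, SD, n = 4) over BMDM-NG-exo (7153 ± 503.2), BMDM-HG-exo (7006 ± 507.1) and high glucose (6064 ± 465) to normal glucose (4656 ± 210.2). Only PBS and BMDM-NG-exo, and high and normal glucose, were neighbours without overlap. Spi1 ran from PBS (10769 ± 407.9) over high glucose (10546 ± 188.3), BMDM-NG-exo (9800 ± 333.4) and BMDM-HG-exo (9549 ± 374.3) to normal glucose (8986 ± 134.8), and of its neighbours only high glucose and BMDM-NG-exo did not overlap. Zfp36l1 ran from PBS (7615 ± 173.8) over normal glucose (7458 ± 462.1), BMDM-NG-exo (6813 ± 359.6) and high glucose (6073 ± 269.5) to BMDM-HG-exo (6073 ± 609.9), with a gap between BMDM-NG-exo and high glucose alone. For Cebpa, Irf8, Runx1, Maf, Klf4 and Zeb2 all neighbours in the order overlapped. Maf was highest in normal glucose (19413 ± 315.7) and lowest in high glucose (17191 ± 687.9), Cebpa highest with BMDM-NG-exo (6962 ± 792.2) and lowest in high glucose (5582 ± 333.2), and Zeb2 highest in high glucose (46047 ± 541.9) and lowest with PBS (40952 ± 1502). Irf8, Runx1 and Klf4 were highest with PBS.

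**Figure D1:**
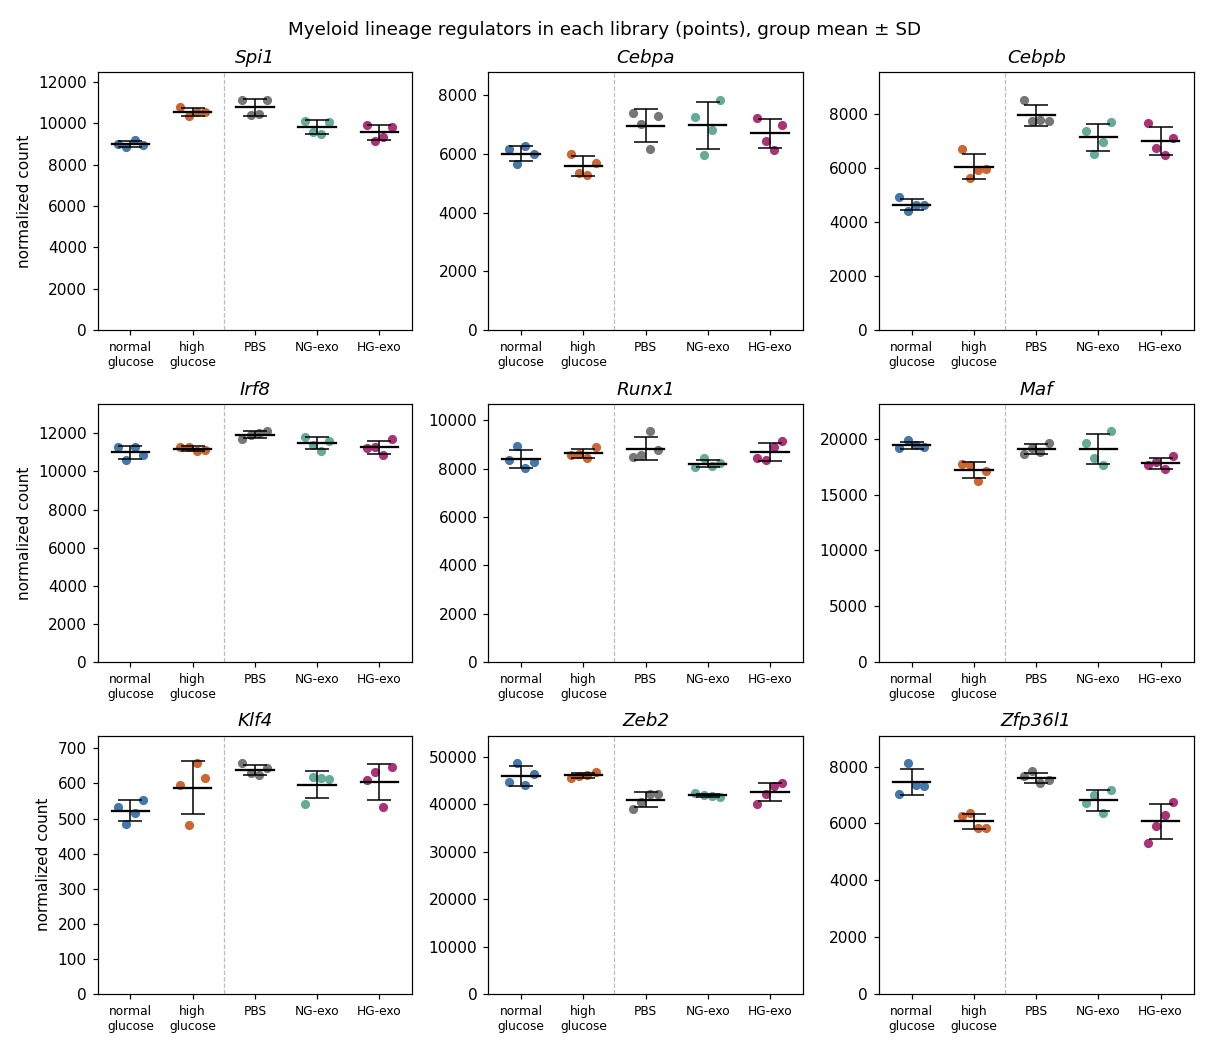
Normalized count (vertical axis, from 0) of each of the 9 regulators in the 5 groups. Each point is a library (4 per group), the long bar is the group mean and the whiskers are the SD. Spi1 and Cebpb are higher, and Maf and Zfp36l1 lower, in every high glucose library than in every normal glucose library. The mean of Zfp36l1 is 7615 with PBS, 6813 with BMDM-NG-exo and 6073 with BMDM-HG-exo. Of these, BMDM-HG-exo and BMDM-NG-exo overlap, and BMDM-NG-exo was called neither against PBS nor against BMDM-HG-exo.

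The first comparison asked what 24 h of high glucose did to BMDM. Spi1 and Cebpb rose in high glucose, and Maf and Zfp36l1 fell. These are 4 of the 9 members, where 13.3% of the 14425 genes tested were called (limma, Benjamini-Hochberg adjusted p under 0.05). Of all genes, 7.74% were called higher, as 2 members were, and 5.53% lower, as 2 members were. The whole-table split of 1116 higher and 798 lower genes turned to 789 and 872 with quantile normalization, under which the 4 members kept their calls. In each of the 4 members the libraries of both groups did not overlap, which held for 16.3% of all genes. The median log2 fold change of the 9 members was 0.02, and that of all genes was -0.003.

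Cebpb, which encodes a CEBP factor that drives inflammatory and emergency myeloid programmes, changed most. Its normalized counts were 4926, 4412, 4648 and 4636 in normal glucose, and high glucose gave 6723, 5630, 5925 and 5980. All 4 high glucose libraries lay above all normal glucose libraries, and replicate 1 was the highest of each group. Cebpb rose by 30.1%, a log2 fold change of 0.38 with a standard error (SE) of 0.047 and an adjusted p of 1.76e-07 in limma. Cebpa, which encodes the CEBP factor of steady-state granulocyte and monocyte commitment, was not called. It ranged from 5644 to 6254 in normal glucose and from 5284 to 6001 in high glucose, with overlap, a log2 fold change of -0.11 (SE 0.044, adjusted p = 0.113). Cebpa did pass the threshold with quantile normalization (-0.15, adjusted p = 0.0233) and without the normal glucose library 3 (adjusted p = 0.0371) or the high glucose library 1 (adjusted p = 0.0395).

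Spi1 had 8969, 8847, 9171 and 8956 normalized counts in normal glucose. In high glucose it had 10796, 10339, 10536 and 10514. The groups were far apart for their spread, with SDs of 134.8 and 188.3 around means of 8986 and 10546. Spi1 rose by 17.4%, a log2 fold change of 0.23 (SE 0.035, adjusted p = 8.1e-06). Leaving out any 1 of the 8 libraries kept both Spi1 and Cebpb called.

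Zfp36l1 fell by 18.5%. Its normalized counts were 7042, 8120, 7347 and 7325 in normal glucose, against 6251, 6356, 5859 and 5827 in high glucose, and the highest high glucose library lay below the lowest normal glucose library. The log2 fold change was -0.30 (SE 0.043, adjusted p = 3.97e-06), and leaving out any library kept the call. Maf, which encodes a factor of resident macrophage identity, fell by 11.5%. It had 19160, 19864, 19391 and 19238 normalized counts in normal glucose, against 17738, 17668, 16250 and 17107 in high glucose, without overlap. Its log2 fold change was -0.18 (SE 0.034, adjusted p = 0.000324), but its adjusted p was 0.0686 in a fit with no variance trend.

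The other 4 members were not called. Irf8, which encodes a monocyte and dendritic cell factor, had 10592 to 11298 normalized counts in normal glucose and 11065 to 11301 in high glucose. Runx1, a factor of blood stem cell emergence, had 8030 to 8916 and 8438 to 8881. Their log2 fold changes were 0.02 (95% interval -0.05 to 0.1) and 0.04 (-0.04 to 0.12), and that of Irf8 was -0.03 with quantile normalization. Klf4 was the least precise member: its high glucose libraries ran from 481.9 to 657.7 and enclosed the normal glucose range of 483.3 to 553.7. Its log2 fold change was 0.16 (95% interval -0.03 to 0.36, adjusted p = 0.296). Zeb2, a repressor that restrains other cell fates in macrophages, had a log2 fold change of 0.01 (95% interval -0.06 to 0.07). With quantile normalization Zeb2 was at -0.12 (adjusted p = 0.0154).

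**Figure D2:**
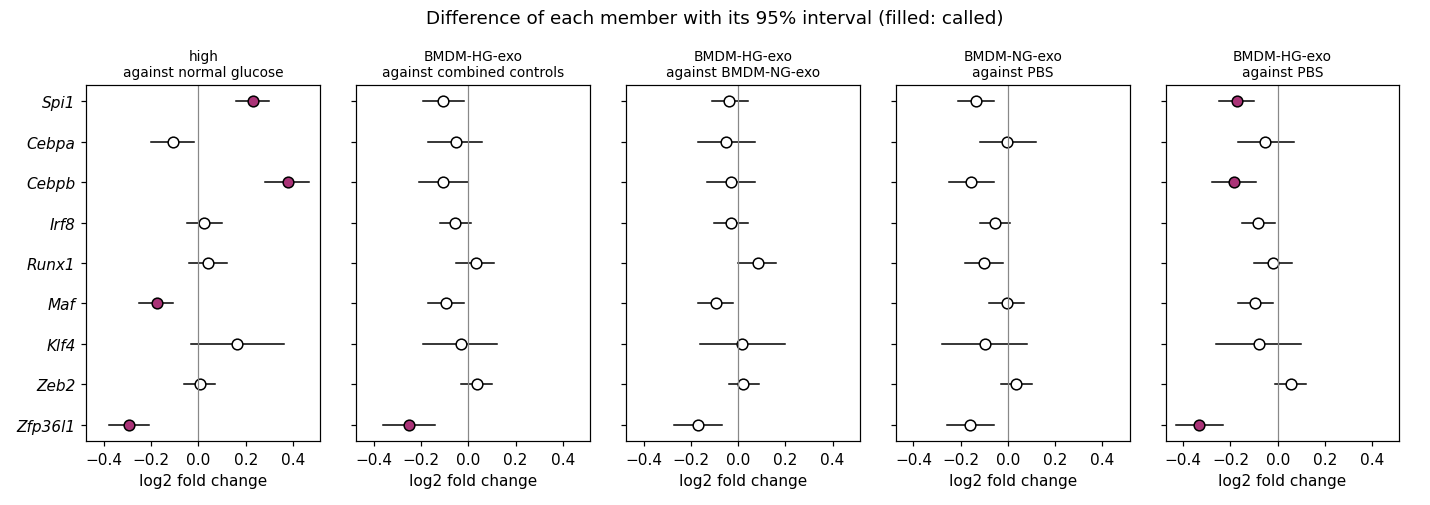
Log2 fold change (horizontal axis) of the 9 regulators in the 5 comparisons, first-named group against the second. Points are limma estimates, lines their 95% intervals, and filled points passed the thresholds of the comparison. With high glucose, Cebpb (0.38) and Spi1 (0.23) lie to the right and Zfp36l1 (-0.30) and Maf (-0.18) to the left. With BMDM-HG-exo against PBS, Zfp36l1 (-0.33), Cebpb (-0.19) and Spi1 (-0.17) lie to the left.

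The second comparison, which the study also made, set BMDM-HG-exo against both controls together, PBS and BMDM-NG-exo. Both controls were fitted as 1 group, so that differences between PBS and BMDM-NG-exo add to the spread of this fit. Zfp36l1 was the single member called, and it fell, where 0.201% of the 14413 genes tested were called and 0.132% were called lower (adjusted p under 0.05 and absolute log2 fold change of at least 0.15). That background rests on 29 genes, and leaving out 1 library moved it from 1 gene (without BMDM-HG-exo 1) to 97 (without BMDM-NG-exo 1) and 204 (without BMDM-NG-exo 3). Normalized counts of Zfp36l1 were 5313, 5919, 6308 and 6751 with BMDM-HG-exo. They were 7673, 7830, 7435 and 7524 with PBS and 6720, 6987, 6358 and 7189 with BMDM-NG-exo. Of the 4 BMDM-HG-exo libraries, 3 lay below all 8 controls, and the fourth, at 6751, lay within the BMDM-NG-exo range. Zfp36l1 fell by 16%, a log2 fold change of -0.25 (SE 0.054, adjusted p = 0.0395).

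This call was close to the threshold. With the date in the label as a block the log2 fold change stayed at -0.25 and the adjusted p was 0.0609. It was 0.0536 with quantile normalization and 0.4 in a fit with no variance trend. Leaving out 1 library ended the call in 8 of 12 fits. These were the fits without PBS 1 (adjusted p = 0.0751), PBS 2 (0.099), PBS 3 (0.0688), PBS 4 (0.0913), BMDM-NG-exo 4 (0.0558), BMDM-HG-exo 1 (0.285), BMDM-HG-exo 2 (0.151) and BMDM-HG-exo 3 (0.0996). The other 8 members were between -0.11 (Spi1 and Cebpb) and 0.04 (Zeb2) on the log2 scale, with adjusted p-values of 0.295 or more. The 9 members had a median log2 fold change of -0.06, and all genes one of 0.

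Against BMDM-NG-exo alone, whose donor cells had mannitol in place of the added glucose, no member was called by limma. Of all genes, 0.0139% were called. An unadjusted p under 0.05 was found for 3 of the 9 and for 942 of the 14413 genes, and neither edgeR nor DESeq2 called a member. Zfp36l1 had a log2 fold change of -0.17 (95% interval -0.27 to -0.07, adjusted p = 0.409), Maf one of -0.09 (-0.17 to -0.02, adjusted p = 0.635) and Runx1 one of 0.08 (0 to 0.16, adjusted p = 0.753). Within the 4 dates that the labels of the exosome libraries share, Zfp36l1, Maf and Spi1 were lower with BMDM-HG-exo on 4 of 4. Cebpa and Irf8 were lower on 3, Cebpb on 2 and Runx1, Klf4 and Zeb2 on 1. The share of all genes lower on 4 of 4 was not determined. The differences of Zfp36l1 within a date ran from -0.34 to -0.01.

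Against PBS, BMDM-HG-exo had lower levels of Spi1, Cebpb and Zfp36l1, 3 of the 9 members, where 4.84% of all genes were called and 3.08% were called lower. Each comparison in this experiment that uses PBS shares those 4 libraries, so their results are not independent of one another. The summed macrophage and progenitor markers were also lower in all 8 exosome libraries than in every PBS library. Without Lyz2 the macrophage sum was 208923 to 221882 with PBS, 184615 to 197197 with BMDM-NG-exo and 183450 to 190359 with BMDM-HG-exo. In both comparisons 5 of the 8 macrophage markers were called lower (Adgre1, Cd14, Csf1r, Fcgr1 and Itgam) and none higher, as was Ly6a, and their part in these results was not tested. All BMDM-HG-exo libraries lay below all PBS libraries for these 3 members and Maf, 4 of 9, which held for 5.59% of all genes. Zfp36l1 fell by 20.5% (log2 fold change -0.33, SE 0.050, adjusted p = 1.47e-05), and leaving out any 1 of the 12 libraries kept the call. Its differences within a date ran from -0.53 to -0.16.

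Spi1 had 11132, 10404, 10429 and 11113 normalized counts with PBS and 9903, 9133, 9336 and 9825 with BMDM-HG-exo. In both groups replicates 1 and 4 were the higher ones. It fell by 11.3% (log2 fold change -0.17, SE 0.038, adjusted p = 0.00231), and within the dates the difference ran from -0.19 to -0.16. Cebpb had 8546, 7744, 7797 and 7768 with PBS and 7670, 6744, 6505 and 7107 with BMDM-HG-exo, which did not overlap. It fell by 12.1% (log2 fold change -0.19, SE 0.048, adjusted p = 0.0127), and the differences within a date ran from -0.26 to -0.13.

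Without the trend of the variance the adjusted p was 0.0862 for Spi1 and 0.216 for Cebpb. The call of Cebpb was also lost without PBS 1 (adjusted p = 0.0896), BMDM-HG-exo 2 (0.0643) or BMDM-HG-exo 3 (0.0911). Maf had 18589 to 19592 normalized counts with PBS and 17270 to 18435 with BMDM-HG-exo, a log2 fold change of -0.10 (95% interval -0.17 to -0.02, adjusted p = 0.147). Cebpa, Irf8, Runx1, Klf4 and Zeb2 had log2 fold changes of -0.05, -0.08, -0.02, -0.08 and 0.06 and overlapped with PBS.

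With BMDM-NG-exo against PBS, no member passed both thresholds in limma, while 3% of all genes did. An unadjusted p under 0.05 was found for 4 of the 9 members and for 1947 of the 14413 genes, and edgeR and DESeq2 called none. Even so, all BMDM-NG-exo libraries lay below all PBS libraries for 5 of the 9 members (Spi1, Cebpb, Runx1, Klf4 and Zfp36l1), which held for 4.63% of all genes. Spi1 had 10109, 9570, 9459 and 10062 normalized counts with BMDM-NG-exo, a log2 fold change of -0.14 (SE 0.038) with an adjusted p of 0.0338, short of the fold limit. Cebpb had 7395, 6546, 6971 and 7700, a log2 fold change of -0.16 (SE 0.048, adjusted p = 0.0659), and Zfp36l1 one of -0.16 (SE 0.050, adjusted p = 0.0659).

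With the date as a block, Cebpb (adjusted p = 0.00812) and Zfp36l1 (adjusted p = 0.0236) were called, 2 of the 9 members. Leaving out a library gave between 0 and 2 called members: Spi1 was called without PBS 2 (adjusted p = 0.0351), PBS 3 (0.0268) or BMDM-NG-exo 1 (0.0292), and Cebpb and Zfp36l1 without BMDM-NG-exo 4 (0.0213 and 0.0417). Both also passed without BMDM-HG-exo 1 (0.0396 and 0.0208), and Zfp36l1 without BMDM-HG-exo 4 (0.0377), libraries that enter this comparison through the shared estimate of the spread. Spi1 was lower with BMDM-NG-exo than with PBS on each of the 4 dates, with log2 differences from -0.14 to -0.12. Cebpb, Runx1, Klf4 and Zfp36l1 were also lower on 4 dates, Irf8 on 3 and Cebpa, Maf and Zeb2 on 2. For Spi1, Cebpb, Runx1, Klf4 and Zfp36l1 the count of dates adds nothing. All their BMDM-NG-exo libraries lay below all PBS libraries, so that every date had to be lower. The share of all genes lower on 4 of 4 was not determined.

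**Figure D3:**
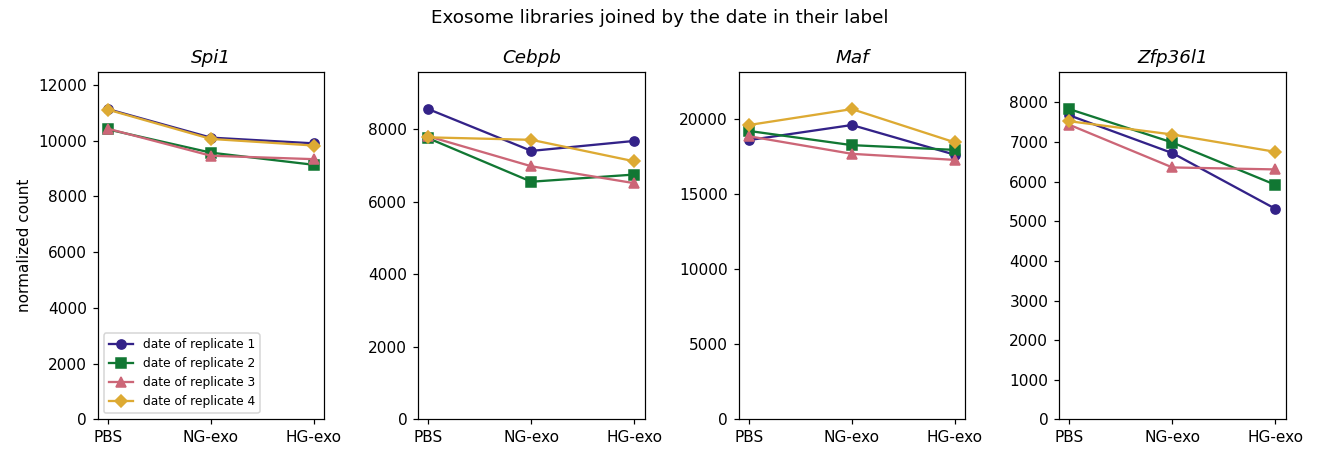
Normalized count (vertical axis, from 0) of Spi1, Cebpb, Maf and Zfp36l1 in the 12 exosome libraries. Lines join the libraries of the 3 groups that carry the same date. The 4 lines of Spi1 run almost in parallel, while those of Zfp36l1 spread from 7435 to 7830 with PBS to 5313 to 6751 with BMDM-HG-exo.

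Other regulators of the same families were looked at from lists of 105 genes, of which 78 were tested. In high glucose 17 of the 78 were called, 12 higher and 5 lower, which is 21.8% beside the 13.3% of all genes. The IRF family had 4 of 7 genes higher and none lower. They included Irf7, a factor of the type I interferon response, at 3146 ± 534.2 normalized counts (SD, n = 4) in high glucose, against 2072 ± 344.5 in normal glucose (log2 fold change 0.60, SE 0.086, adjusted p = 2.87e-06). Irf5, a factor of inflammatory macrophage activation, rose by 0.24 and Irf1 by 0.19 on the log2 scale. Of the 4 CEBP relatives, Cebpd rose with Cebpb (1889 ± 101.6 against 1382 ± 93.92, SD, n = 4, log2 fold change 0.45, adjusted p = 9.17e-07).

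The relatives of Zfp36l1 went in different directions. Zfp36, which encodes the mRNA decay factor tristetraprolin, fell by 0.29 on the log2 scale (adjusted p = 0.000108), as Zfp36l1 did, and Zfp36l2 rose by 0.15 (adjusted p = 0.00318). Among other regulators, Rbpj, the DNA-binding partner of Notch, rose by 0.46 (adjusted p = 2.69e-10) and Bcl6, a repressor of inflammatory genes, by 0.32 (adjusted p = 2.56e-06), while the immediate early gene Nr4a1 fell by 0.60 (adjusted p = 0.00439). Ets2, Klf10, Klf2 and Mitf were also called higher and Etv3, Etv5 and Egr1 lower. These 7, Irf1 and, of the target genes, Csf3r and Cdk6 lost their call in at least 1 fit that left out a library, with adjusted p-values up to 0.2 (Mitf, without high glucose 6). None of the 5 MAF and 5 RUNX and CBF genes tested was called in high glucose (2 and 1 at an unadjusted p under 0.05).

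In the exosome experiment, 0 of the 78 regulators passed limma against the combined controls (16 at an unadjusted p under 0.05, as were 1511 of the 14413 genes, 0 by edgeR and 2 by DESeq2). For BMDM-HG-exo against BMDM-NG-exo it was also 0 (7 at an unadjusted p under 0.05, 0 by edgeR and DESeq2). Against PBS, 8 were called with BMDM-NG-exo, 6 of them lower, and 15 with BMDM-HG-exo, 14 of them lower, beside 3% and 4.84% of all genes. Of the 7 IRF genes, 3 were lower with BMDM-NG-exo and 4 with BMDM-HG-exo. Irf7 had 2330 ± 117.5 normalized counts (SD, n = 4) with PBS, 1362 ± 147 with BMDM-NG-exo and 1270 ± 201.3 with BMDM-HG-exo. The SE of its log2 fold change was 0.151 against the combined controls, fitted as 1 group, and 0.0815 for BMDM-HG-exo against PBS. Irf8 itself, with 11687 to 12093 normalized counts with PBS and 10844 to 11689 with BMDM-HG-exo, was not called. Zfp36 was lower with BMDM-HG-exo than with PBS, at 3770 ± 363 and 4636 ± 437.3 (log2 fold change -0.30, adjusted p = 0.00114).

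Of 14 tested myeloid genes known as targets of PU.1, CEBP or RUNX1, 6 rose and 1 fell in high glucose, where 7.74% of all genes were called higher and 5.53% lower. The M-CSF receptor gene Csf1r had 92030 ± 3798 normalized counts (SD, n = 4) in normal glucose, against 117243 ± 2463 in high glucose (log2 fold change 0.35, adjusted p = 5.63e-10). The oxidase gene Cybb rose by 0.31 (adjusted p = 3.13e-09) and the lysozyme gene Lyz2 by 0.42 (adjusted p = 7.08e-10). With quantile normalization Lyz2 had a difference of 0. That scaling gives a rank the same value in every library, so a gene that keeps its rank gets 0 whatever its level. This 0 is therefore not a test of the rise of Lyz2. Against PBS, 6 of the 14 fell with BMDM-NG-exo and 8 with BMDM-HG-exo, and none rose, beside 3% and 4.84% of all genes called in either direction. Against the combined controls 2 fell, the integrin gene Itgam (log2 fold change -0.29, adjusted p = 0.0125) and the Fc receptor gene Fcgr1 (-0.39, adjusted p = 0.0392), and without BMDM-HG-exo 1 their adjusted p-values were 0.187 and 0.248. Of the 12 fits that left out a library, Itgam was under 0.05 in 10 (0.0609 without BMDM-HG-exo 2) and Fcgr1 in 5. The median of the 14 was 0.08 in high glucose and -0.22 with BMDM-HG-exo against PBS. In the list, 5 of the 15 genes are also among the 8 macrophage markers whose sums are given above.

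Of 7 transcripts known to be bound or shortened in life by ZFP36L1, Tnf rose in high glucose from 323.4 ± 45.61 to 538.3 ± 60.95 normalized counts (SD, n = 4, log2 fold change 0.74, adjusted p = 8.64e-06). Vegfa and Cdk6 fell by 0.18 and 0.13 on the log2 scale (adjusted p = 0.00434 and 0.0204). With BMDM-HG-exo against PBS, 2 of the 7 rose, Bcl2 among them (log2 fold change 0.65), and Notch1 and Vegfa fell (-0.33 and -0.16). With BMDM-NG-exo against PBS 1 of the 7 rose, and Tnf (-0.47, limma adjusted p = 0.0203) and Notch1 (-0.24) fell. Of all genes, 13.3% were called in high glucose, 4.84% with BMDM-HG-exo and 3% with BMDM-NG-exo against PBS. Against the combined controls none of the 7 passed limma (3 at an unadjusted p under 0.05, 0 by edgeR and 1 by DESeq2). Bcl2 differed by 0.48 on the log2 scale (limma adjusted p = 0.109, and 0.0443 by DESeq2).

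Some of the members also varied together within groups, while others did not or went apart. After the mean of each group was removed, Spi1, Cebpa and Cebpb went together over the 20 libraries, with Pearson r of 0.77 (Spi1 and Cebpa), 0.72 (Spi1 and Cebpb) and 0.82 (Cebpa and Cebpb) and Spearman rho of 0.79, 0.71 and 0.83. Runx1 and Zeb2 formed the other close pair (r 0.77, rho 0.72), and Cebpb and Zeb2 went apart (r -0.54, rho -0.45). Zfp36l1 went along with Zeb2 (r 0.57, rho 0.35) and Maf (r 0.51, rho 0.61) and not with Spi1 (r -0.02, rho 0.06). Over all pairs of members r ran from -0.54 to 0.82, and the r of other pairs of genes was not determined. These values describe libraries in which all genes share the depth, the scaling factor and, in the exosome experiment, the date, and they carry no p.

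**Figure D4:**
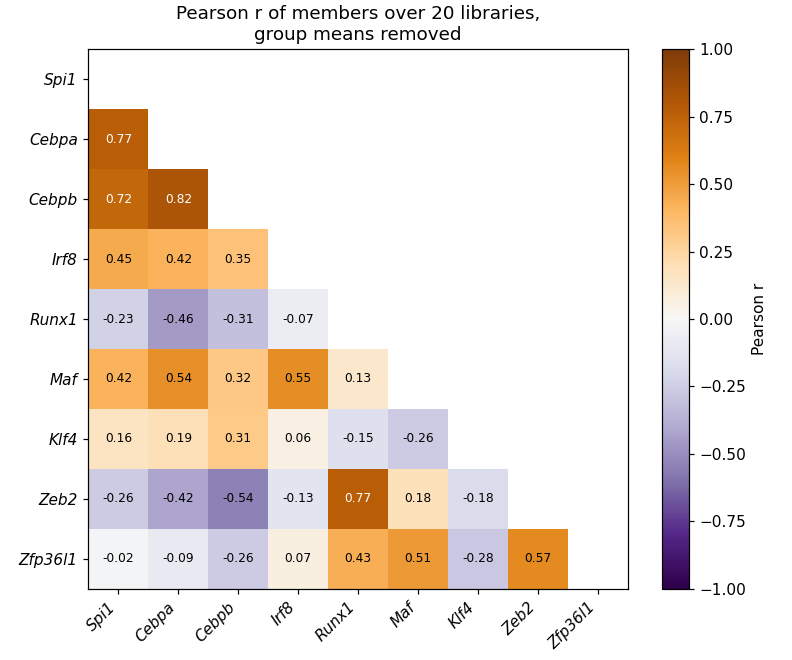
Pearson r between each pair of the 9 regulators over 20 libraries, after the group means were removed (colour scale from -1 to 1, values written in the cells). Spi1, Cebpa and Cebpb form 1 block of values from 0.72 to 0.82, and Runx1 and Zeb2 stand at 0.77.

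Among 11718 genes, those whose levels followed a member most closely in the same way were Eng (r 0.861) and Sirpa (0.856), both macrophage surface proteins, for Spi1 and Scap (0.894) and Pacs1 (0.88) for Cebpa. For Cebpb they were Zfp36l2 (0.916), the relative of Zfp36l1, and Scand1 (0.87). Irf8 was followed by Pdp2 (0.891) and Myo1c (0.876), and Runx1 by Ccdc125 (0.876) and Tet2 (0.843), which encodes an enzyme that oxidizes methylcytosine. Maf was followed by Parp12 (0.816) and Phf3 (0.814), Klf4 by Dmwd (0.809) and Fam71e1 (0.787), and Zeb2 by Lrif1 (0.842) and Kmt2e (0.834). Zfp36l1 was followed by Aagab (0.846) and by Ccr2 (0.843), the chemokine receptor of inflammatory monocytes.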

How the data were processed

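Stranded total RNA libraries, depleted of ribosomal cDNA, were made from 20 BMDM samples, 4 in each of 5 groups taken from the labels. Per the labels and the study's methods the authors used cutadapt, STAR on GRCm38 and featureCounts with read 2 as the sense strand. The gene annotation used for counting is not given in the sources used here. The deposited signal values are counts that the authors divided by 1 size factor per library. Whole reads were recovered from 100% of the values (tolerance 0.01 of a read), and the totals of 34016445 to 56310712 reads set the counting precision. Since the columns hold normalized values, the main test was limma 3.58.1 (R 4.3.3, eBayes with trend, two-sided) on log2(normalized count + 1), so that fold changes are on that scale. Genes with a mean of at least 10 were tested, with Benjamini-Hochberg adjustment over all of them. A call needed an adjusted p under 0.05 and, in the exosome comparisons, a log2 change of 0.15 or more in size. The 3 pairs of exosome groups were taken from 1 fit. Scripts used Python 3.11.15, pandas 2.3.3, numpy 2.4.6 and scipy 1.17.1, and were tested on simulated data.

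Alternatives were edgeR 4.0.16 and DESeq2 1.42.0 on the recovered reads, other pseudocounts, filters and scalings, no variance trend, a replicate block and leaving out each library. The labels of the exosome libraries give 4 dates, each once per group, which pairs them. Deviations of same-date libraries from their group means had a mean correlation of 0.012 (-0.018 to 0.056, 12 pairs), against -0.004 for the other 36 pairs.

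Members and lists were chosen with earlier results of these data known. All 9 members are named in every comparison. Of each list, the up to 3 called genes with the smallest p in each direction are named for high against normal glucose and for BMDM-HG-exo against the combined controls, or the 1 with the smallest p where none was called. Values of list genes against PBS were chosen after they were seen, and 1 gene of the lists is not reported here. For each member the 2 genes with the highest r are named, among those with a mean of at least 50.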

Additional observations from a re-analysis of the deposited data

Results flagged for a closer look

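The PBS library 1 had 8546 normalized counts of Cebpb, apart from the other 3 PBS libraries at 7744 to 7797, a gap of 0.933 of the range of the group. The BMDM-NG-exo library 1 had 540.5 normalized counts of Klf4, below the other 3 at 611.6 to 619.5, a gap of 0.900 of the range. Of 45 groups of 4 libraries looked at, these 2 had such a library, and chance alone gives about 1 in 20.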

How the results depend on the processing

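The calls of Spi1, Cebpb and Zfp36l1 in high against normal glucose, and of Zfp36l1 with BMDM-HG-exo against PBS, held under every alternative that was run. In high against normal glucose 4 members were called, and 6 with quantile normalization, which added Cebpa and Zeb2. Without the trend of the variance or with the replicate block it was 3. For BMDM-HG-exo against the combined controls, 1 member was called, and 0 with quantile normalization, without the trend of the variance or with the date as a replicate block. For BMDM-NG-exo against PBS, 0 were called, and 1 without a limit on the fold change, 1 with a mean of at least 50 and 2 with the replicate block. For BMDM-HG-exo against PBS, 3 were called, and 1 without the trend. The replicate block changed no other call of a member in the exosome comparisons. Leaving out 1 library gave 4 to 5 members in high against normal glucose, 0 to 1 against the combined controls, 0 to 2 for BMDM-NG-exo and 2 to 3 for BMDM-HG-exo against PBS, and 0 between the 2 exosome groups.

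In the glucose experiment only the numbers 1 and 6 stand in both groups and nothing ties them to a shared animal or day (mean correlation 0.007 over 2 pairs, -0.001 over 14 others). With the numbers as a block, a library whose number stands in only 1 group adds nothing to the difference. That fit thus compares only the libraries 1 and 6 of both groups. In it the log2 fold change of Maf was -0.14 (limma adjusted p = 0.132), 10 other regulators were called in place of 17, and 788 genes in all in place of 1914. An effect of the block cannot be told apart here from that of fewer libraries.

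Without the trend of the variance, 5 other regulators were called in high glucose in place of 17 (654 genes in all), 1 with BMDM-NG-exo in place of 8 and 4 with BMDM-HG-exo in place of 15 against PBS. DESeq2 called 2 against the combined controls in place of 0, and 136 genes in all in place of 29, where without the trend 1 gene was called. Leaving out 1 library gave from 1 to 204 genes in all. Without 1 library the other regulators called were 11 to 20 in high glucose, 0 to 5 against the combined controls, 5 to 10 for BMDM-NG-exo and 9 to 16 for BMDM-HG-exo against PBS. The 5 were called without BMDM-NG-exo 3, the 11 without high glucose 6 and the 9 without BMDM-HG-exo 3.

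Direction turned only where the difference in the main fit was small. The turned value of Zeb2 in high glucose passed the threshold with quantile normalization (limma adjusted p = 0.0154). Quantile normalization gave -0.034 for Irf8 and -0.116 for Zeb2 in high glucose, -0.010 for Zeb2 between the exosome groups and 0.004 for Maf with BMDM-NG-exo against PBS. Cebpa in that last comparison was 0.00014 with edgeR and 0.002 with DESeq2. Leaving out 1 library turned Cebpa (-0.061 to 0.071) and Maf (-0.043 to 0.032) for BMDM-NG-exo against PBS, Cebpa (-0.125 to 0.007), Cebpb (-0.074 to 0.006) and Klf4 (-0.029 to 0.078) between the exosome groups, Runx1 for BMDM-HG-exo against PBS (-0.044 to 0.018), Klf4 against the combined controls (-0.065 to 0.028) and Zeb2 in high glucose (-0.012 to 0.035). The cause of these changes was not tested. Klf4, with 450 or more reads in a library, was the member with the least depth.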
